A study of Mus musculus with 7 samples.

Results

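Small nucleolar RNAs (snoRNAs) and small Cajal body RNAs (scaRNAs) are short non-coding RNAs that work as ribonucleoproteins in the nucleolus and the Cajal body. Of the 1558 rows of biotype snoRNA or scaRNA in an expression table of 57126 mouse genes, 29 reached at least 1 TPM (read density per length, scaled to the same total in each library) in at least 3 of 7 libraries, and these 29 are described here. They comprise 23 snoRNA and 6 scaRNA rows: 11 of 113 rows named Snord, 3 of 42 named Snora, 4 of 9 named Scarna, and 11 of 1394 with other names, all Gm numbers. The members were chosen by their TPM levels in these same libraries, so the levels are a description and carry no test.

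The 7 libraries were made from mCherry-expressing 4T1, a triple-negative mammary carcinoma line of the mouse. These cells had grown as tumors in BALB/c animals, in a mammary fat pad treated 7 days earlier. The treatment was saline (PBS, 100 µL, 3 libraries) or Botox (0.3 units in 100 µL of PBS, 4 libraries). The groups come from the sample titles, while a separate treatment label reads untreated for all 7 libraries. Botox is a botulinum neurotoxin preparation, used in the study to silence the nerves of the fat pad. After tumors appeared, mCherry-positive cells were sorted by flow cytometry, and each library is labelled with a mouse of its own. No source used here gives the ages of the animals. All mice carried tumors of the same labelled line, and no library came from a fat pad without an injection. TPM was made with the genomic span of each gene as its length, so TPM compares genes per length of that span.

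C/D box snoRNAs guide ribose methylation of other RNAs and carry a C box near the start and a D box near the end. H/ACA box snoRNAs guide the conversion of uridine to pseudouridine and end in an ACA triplet followed by a short tail. A few, such as U3 (Snord3) and U17 (Snora73), are needed for cleavage of the ribosomal RNA precursor instead of its modification. ScaRNAs modify the spliceosomal small nuclear RNAs in Cajal bodies, and several of them combine both box types in 1 molecule. Most mammalian snoRNAs are cut out of introns of a host gene, while U3 is transcribed from promoters of its own.

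In the table's coordinates, build mm39 per the submitters' processing notes, Snord17 stands at chr2:144107899-144108137, Gm26448 at chr9:119958417-119958620, Snora73b at chr4:132079633-132079838 and Snora73a at chr4:132080086-132080291. The Cajal body RNAs Gm25395, Scarna6 and Scarna10 stand at chr1:87704660-87704932, chr1:87712278-87712543 and chr6:125163322-125163647. Snord17, Scarna10 and both Snora73 copies are on the minus strand and the others on the plus strand.

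The members on which the results turn are printed as their GENCODE M21 transcripts (build GRCm38), written as DNA from 5′ to 3′. Sequences were found for 18 of the 29 members, 17 by gene ID and 1 by symbol, and all 18 had the length given in the table. The first pair are C/D RNAs: U3, the RNA with the most rows, and Snord17, the member that was higher in every Botox library than in every PBS library. Capitals mark TGATGA and a CTGA in the last 10 bases. In Snord17 the TGATGA stands within the first 30 bases, and in Snord3a it does not.
Snord3a: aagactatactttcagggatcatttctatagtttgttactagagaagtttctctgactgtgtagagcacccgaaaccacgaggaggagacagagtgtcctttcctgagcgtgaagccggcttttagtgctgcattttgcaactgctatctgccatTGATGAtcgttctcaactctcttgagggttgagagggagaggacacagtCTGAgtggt
Snord17: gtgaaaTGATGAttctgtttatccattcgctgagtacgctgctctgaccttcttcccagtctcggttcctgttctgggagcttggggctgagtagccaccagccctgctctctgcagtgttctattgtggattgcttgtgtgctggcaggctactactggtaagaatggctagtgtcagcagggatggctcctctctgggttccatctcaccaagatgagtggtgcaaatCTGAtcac

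The next 3 sequences are of the H/ACA type and show how alike the U17 copies are to another RNA, Gm26448. Capitals mark the ACA that stands 3 bases before the end.
Snora73a: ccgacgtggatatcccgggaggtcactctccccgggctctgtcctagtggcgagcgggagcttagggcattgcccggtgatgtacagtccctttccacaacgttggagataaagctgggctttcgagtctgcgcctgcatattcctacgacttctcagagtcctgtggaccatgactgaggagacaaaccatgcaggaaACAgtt
Snora73b: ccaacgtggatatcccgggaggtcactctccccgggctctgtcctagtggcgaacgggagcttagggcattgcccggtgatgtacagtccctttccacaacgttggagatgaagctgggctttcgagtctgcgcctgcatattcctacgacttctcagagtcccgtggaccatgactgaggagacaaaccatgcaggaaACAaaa
Gm26448: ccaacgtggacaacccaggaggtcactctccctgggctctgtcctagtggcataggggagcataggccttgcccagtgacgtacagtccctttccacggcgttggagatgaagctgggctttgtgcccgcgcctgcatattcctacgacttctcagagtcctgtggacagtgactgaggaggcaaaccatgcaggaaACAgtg

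Snora73a and Snora73b were identical at 198 of 205 aligned positions (96.6%), with a longest shared stretch of 56 bases. Gm26448, which lies in another gene on another chromosome, was 88.3% identical to Snora73a and 87.8% to Snora73b, with longest shared stretches of 40 and 33 bases. The median over the 153 pairs of members with a sequence was 47.3%.

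The last pair are Cajal body RNAs that lie within the same gene, Atg16l1, and differ in level. Capitals again mark TGATGA and the CTGA near the end.
Gm25395: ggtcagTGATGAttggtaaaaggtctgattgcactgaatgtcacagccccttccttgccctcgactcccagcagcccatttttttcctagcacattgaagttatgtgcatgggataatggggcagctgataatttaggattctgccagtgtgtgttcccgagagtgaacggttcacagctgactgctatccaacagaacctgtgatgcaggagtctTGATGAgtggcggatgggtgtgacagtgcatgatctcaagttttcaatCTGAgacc
Scarna6: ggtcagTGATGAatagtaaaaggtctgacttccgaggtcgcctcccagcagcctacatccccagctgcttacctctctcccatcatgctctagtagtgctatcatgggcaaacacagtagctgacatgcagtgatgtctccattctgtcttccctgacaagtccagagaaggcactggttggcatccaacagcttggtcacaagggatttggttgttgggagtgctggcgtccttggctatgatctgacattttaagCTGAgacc

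Gm25395 and Scarna6 were 62.6% identical and share their first 12 bases, which end with the C box. The rule did not use sequence, so the boxes were counted on the sense strand of all 18 sequences. TGATGA and CTGA, both at any position, were present in 8 of 18 (44.4%), against 14.4% of 1082 other snoRNA and scaRNA transcripts, 35.7% of the 14 of those with 200 bases or more, and 8.33% of 250-base windows of long intergenic RNAs. ACA 3 bases before the end was present in 6 of 18 (33.3%), against 20.8%, 35.7% and 2.14% in the same 3 sets. TGAG, the core of the box that directs RNAs to Cajal bodies, can share bases with CTGA and was present in 88.9% of members and in 73.1% of the windows. TGATGA within the first 30 bases was present in 6 of 18 (33.3%), against 11.3% of the 1082 other transcripts, 0 of the 14 with 200 bases or more, and 0.846% of the windows.

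Which of these RNAs the libraries recorded followed their length. Of the 1558 rows, 1508 had no read in any library. No row of any gene shorter than 136 bases had a read, 0 of 5499 rows, and 1329 of the snoRNA and scaRNA rows fall below that length. In rows of more than 140 and up to 160 bases, 14.3% of 70 snoRNA and scaRNA rows had a read in some library. From above 200 to 250 bases the share was 70.4% of 27 rows, against 19.8% of 691 other genes of that length. Of these 19 snoRNA and scaRNA rows with a read, 10 were rows of U3, which are not separate measurements. The members ran from 140 to 414 bases, and 22 of the 39 snoRNA and scaRNA rows with 200 bases or more were members. The 22 include the 10 U3 rows. Per the labels' protocols the libraries were sequenced from both ends with reads of 150 bases after depletion of ribosomal RNA. The lowest TPM that a single read could give a 140-base row was 0.695 to 1.46, depending on the library.

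**Figure D1:**
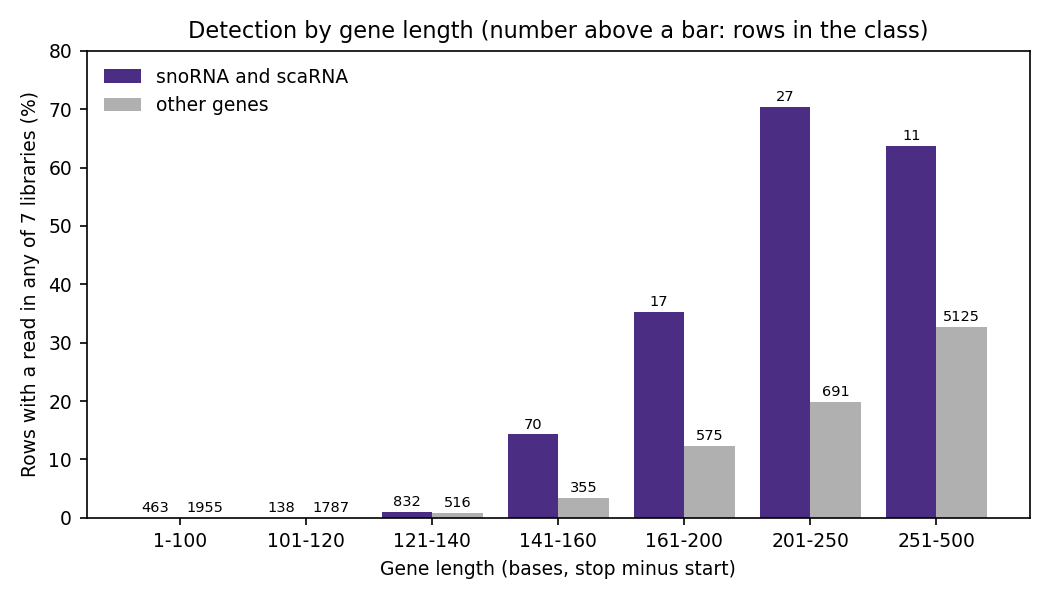
The share of rows with a read in any of the 7 libraries (vertical axis, percent) by gene length in bases (horizontal axis), for snoRNA and scaRNA rows and for other genes; the number above each bar is the number of rows. No row up to 120 bases had a read in either set, and the snoRNA and scaRNA share reached 70.4% from above 200 to 250 bases, a class that holds the 10 U3 rows.

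Several well-known RNAs were listed at 0 in all 7 libraries and are therefore not among the members. These were Snord118 (U8, 135 bases), which acts in maturation of the large ribosomal subunit, Snord13 (U13, 104 bases), the 17 rows of the neuron-enriched Snord116 cluster, and Snora74a (196 bases). At these lengths a value of 0 does not show that the RNA was absent from the cells. Just inside the threshold stood Gm22884, whose 3 highest libraries were all at 1.01 TPM or more, and Gm55431, for which that level was 2.00 TPM. Just outside stood Snora57 and Gm25483, for which it was 0.827 and 0.539 TPM.

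Together the members made up 0.613% to 0.682% of all TPM after PBS and 0.315% to 0.742% after Botox, and about 0.1% of reads: 0.0995% to 0.149% per library. The mean was 0.654% ± 0.0364 with PBS (SD, n = 3) against 0.548% ± 0.178 with Botox (SD, n = 4). The highest and the lowest library were both Botox libraries, Botox 2 and Botox 4, so the groups overlapped. Because 7SL RNA alone took 47.9% to 52.0% of TPM after PBS and 53.0% to 70.4% after Botox, every other gene's TPM is relative to a total that this RNA dominates. Without 7SL RNA the members' share was 1.31% ± 0.0646 after PBS and 1.42% ± 0.441 after Botox, which turns the direction of the difference of the means. By library it was 1.28% to 1.39% after PBS and 1.45%, 2.03%, 1.13% and 1.06% in Botox 1 to 4. Botox 3 and Botox 4 thus stayed below every PBS library, and Botox 2 was the highest.

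The libraries themselves differed. Estimated reads ran from 8.56 to 13.6 M, and 24368 to 25147 genes were above 0 in the PBS libraries against 15625 to 24211 in the Botox libraries, with Botox 4 and Botox 2 lowest. The 5 markers listed for the tumor cells, Krt8, Krt18, Epcam, Cdh1 and Vim, summed to 712 to 784 TPM after PBS and 209 to 742 TPM after Botox. None of the 5 was at 0 throughout. Vim, which is not an epithelial marker, was alone at 502 to 535 TPM after PBS and 138 to 499 TPM after Botox. Epcam and Cdh1 were at most 3.27 TPM in any library, so the sum does not measure epithelial content. Macrophage markers, 8 genes, summed to 810 to 1256 TPM after PBS and 226 to 1053 TPM after Botox. Neutrophil, T and NK, B, endothelial, adipocyte and erythrocyte markers each summed to at most 18.7 TPM in any library, with overlapping groups and with Cd3d at 0 throughout. Fibroblast markers summed to 4.42 to 6.47 TPM after PBS and 2.68 to 3.35 TPM after Botox, and nerve markers to 1.59 to 1.89 and 0.521 to 1.52 TPM, without overlap in either. Of the 7 nerve markers 0 and of the 5 fibroblast markers 2 reached 1 TPM in 3 or more libraries. Among all genes that did, 22.4% were likewise below every PBS library in every Botox library. In sorted bulk samples fewer cells of a type and less RNA per cell cannot be told apart, and the part of these differences in the members' values was not tested.

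Of the 29 members, 21 were above 0 in every library and 8 were listed at 0 in at least 1. Across all 11260 genes tested, 16.2% were at 0 in at least 1 library. The members at 0 numbered 2 in PBS 1, 0 in PBS 2 and PBS 3, 1 in Botox 1, 7 in Botox 2, 2 in Botox 3 and 6 in Botox 4. As a share of members this was 24.1% in Botox 2 and 20.7% in Botox 4, against 7.22% and 13.3% of all genes tested in those libraries. The 10 U3 rows were above 0 in every library, so all zeros fall among the 19 other members. Zeros were thus most frequent in the 2 libraries with the fewest genes above 0, in members and in all genes. Every member reached 1 TPM in at least 1 Botox library. Snora23, Gm23547, Gm56109 and Gm23262 did so in all 3 PBS libraries but in only 2 Botox libraries. For these members the PBS libraries met the rule by themselves and the Botox libraries did not. All 8 members with a zero had a mean below 10 TPM, and most of their values stand for fewer than 10 reads. The 20 members at 1 TPM or more in all 7 libraries were 203 bases or longer.

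**Figure D2:**
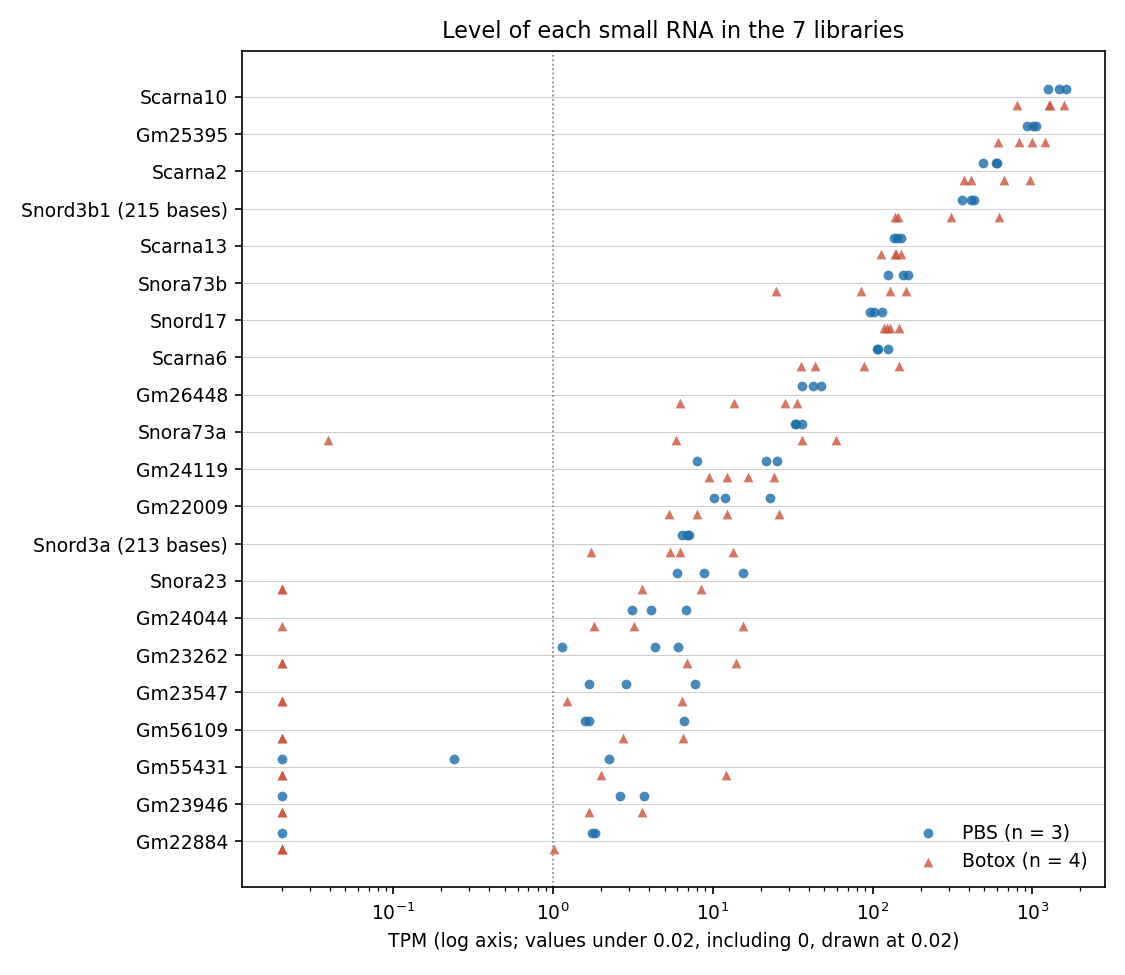
TPM of each small RNA (log axis) in 3 PBS libraries (circles) and 4 Botox libraries (triangles), with U3 shown by 1 row of each locus group; values under 0.02, including 0, are drawn at 0.02 and the dotted line marks 1 TPM. Scarna10 and Gm25395 stand highest in both groups, and the Botox triangles spread more widely than the PBS circles.

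Ordered by role, the pre-rRNA processing RNA U3 comes first. It filled 10 of the 29 rows: 4 Snord3b copies within 28.3 kb of chromosome 11 and Snord3a on chromosome 10, each of the 5 loci listed under 2 gene IDs that differ by 1 base in length. The 8 Snord3b rows lie within the span of Tex14, a gene whose own level was at or below 0.0184 TPM in every library. The 4 Snord3b copies of 215 bases had 1 identical value in 4 of 7 libraries, and elsewhere their highest value was at most 1.10 times their lowest. The 4 of 216 bases were identical in the same 4 libraries, and elsewhere their highest value was up to 1.24 times their lowest, in Botox 1. The shorter row of each locus was 1.12 to 1.26 times the longer one in all 35 comparisons. These 10 rows are therefore not 10 measurements, and the deposited values cannot tell the copies apart.

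Summed over its 10 rows, U3 stood at 2975, 3060 and 2600 TPM in PBS 1 to 3 and at 2263, 4442, 1037 and 1013 TPM in Botox 1 to 4. Botox 2 was the highest of the 7 libraries, the other 3 Botox libraries were lower than every PBS library, and the groups overlapped through Botox 2 alone. The means were 2878 ± 245 TPM with PBS (SD, n = 3) against 2189 ± 1612 TPM with Botox (SD, n = 4). Differences between the groups are on the log2(TPM + 1) scale from limma, Botox over PBS, with the SE; p-values are two-sided and adjusted by Benjamini-Hochberg over the 11260 genes that reached 1 TPM in 3 or more libraries. On this scale the 8 Snord3b rows differed by -0.69 to -0.63 and the Snord3a rows by -0.25 and -0.23. For the 215-base row of Snord3b1 the difference was -0.69 ± 0.54 (SE), with adjusted p = 0.436 in limma. With size factors it was -0.07 ± 0.52 and with quantile normalization -0.00365 ± 0.573, so its size depends on the scaling. Snord3a was far lower, at 6.93, 7.06 and 6.39 TPM in PBS 1 to 3 and at 6.28, 5.37, 1.74 and 13.5 TPM in Botox 1 to 4 in its 213-base row. Here Botox 4 was the highest library and Botox 3 the lowest, an order unlike that of Snord3b.

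U17, the other RNA of this role, is encoded by Snora73a and Snora73b, 0.658 kb apart from first start to last stop on chromosome 4, within the spans of Snhg3 and Rcc1. Snora73b was at 154, 167 and 125 TPM in PBS 1 to 3 and at 128, 84.6, 162 and 24.9 TPM in Botox 1 to 4. Snora73a was at 32.5, 36.2 and 33.3 TPM in PBS 1 to 3 and at 36.2, 0.0389, 59.2 and 5.87 TPM in Botox 1 to 4. Botox 4 was low for both copies, Botox 3 was as high as PBS or higher, and Botox 2 had almost no Snora73a. The value of Snora73a in Botox 2 stands for 0.0660 of a read beside 144 reads of Snora73b. How the counting treated reads that match both copies is not stated in the sources used here, so each copy's value is uncertain. Snora73a was 17.4% to 21.1% of the summed pair after PBS, and 22.03%, 0.0459%, 26.8% and 19.1% after Botox. The sum of the pair was 183 ± 23.1 TPM with PBS (SD, n = 3) against 125 ± 84.1 TPM with Botox (SD, n = 4), with overlapping groups. In limma, Snora73b differed by -0.85 ± 0.60 and Snora73a by -1.64 ± 1.11 (log2 ± SE), both with adjusted p = 0.424. Without Botox 2 the Snora73a difference was -0.49, and without Botox 2 and Botox 4 together it was 0.44, the opposite direction.

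**Figure D3:**
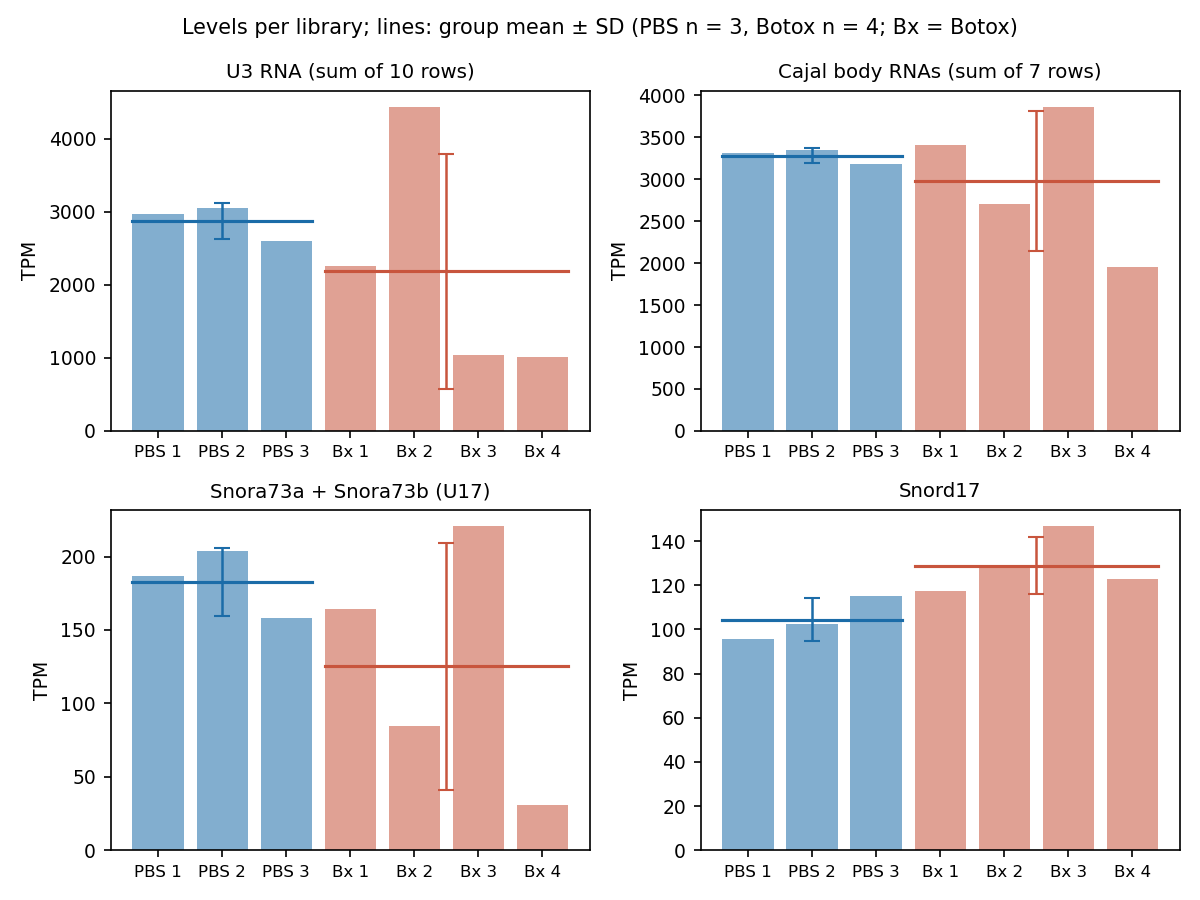
TPM per library (bars; Bx is Botox) for the sum of the 10 U3 rows, the sum of the 7 Cajal body RNA rows, the sum of the 2 U17 copies, and Snord17; lines are group means with SD (PBS n = 3, Botox n = 4). U3 is highest in Botox 2 and lowest in Botox 3 and Botox 4, whereas the Cajal body RNAs and U17 are highest in Botox 3.

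Gm26448, the H/ACA RNA that resembles U17 in sequence, lies on chromosome 9 within Rpsa, the gene of a small-subunit ribosomal protein. It was at 42.1, 47.5 and 36.1 TPM in PBS 1 to 3 and at 28.5, 13.7, 33.6 and 6.23 TPM in Botox 1 to 4. Every Botox library was below every PBS library. It was the only member of which this held (3.45% of 29 rows, of which 10 are U3), against 22.4% of all genes tested. The difference was -1.23 ± 0.54 on the log2 scale, with unadjusted p = 0.0430 and adjusted p = 0.424 in limma. Its estimated reads, 13 to 75 per library, were whole within 0.1 in all 7 libraries, while those of Snora73a were not whole in 5 libraries and those of Snora73b in 3.

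Gm24044, a second H/ACA RNA with its ACA in place, lies in the same host 0.774 kb or less from Gm26448. It was at 6.77, 4.12 and 3.13 TPM in PBS 1 to 3 and at 1.81, 15.5, 3.20 and 0 TPM in Botox 1 to 4. The pair did not share an order of libraries: Botox 2 was the highest library for Gm24044 and among the lowest for Gm26448. Gm24044 differed by -0.55 ± 0.74 on the log2 scale.

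Snora23, a guide for ribosomal RNA hosted by Ipo7, was at 8.86, 15.4 and 5.98 TPM in PBS 1 to 3 and at 8.44, 0, 3.62 and 0 TPM in Botox 1 to 4. Botox 2 and Botox 4 were listed at 0, and Botox 1 lay within the PBS range. Its difference of -2.02 ± 0.73 was the lowest among the members, with unadjusted p = 0.0189 and adjusted p = 0.424 in limma. It rests on at most 22 reads per library. Snora23 met the rule of the members through its 3 PBS libraries, as only 2 Botox libraries reached 1 TPM. Without Botox 2 and Botox 4 together it was -0.66.

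Snord17, a C/D guide for ribosomal RNA on chromosome 2 within Snx5, a sorting nexin gene, showed the opposite order. It was at 95.8, 103 and 115 TPM in PBS 1 to 3 and at 117, 128, 147 and 123 TPM in Botox 1 to 4. Every Botox library was above every PBS library, which held for 0.151% of all genes tested and for no other member. The gap was small: Botox 1 exceeded PBS 3 by less than the SD of either group, which was 9.73 TPM (n = 3) and 12.8 TPM (n = 4). The difference was 0.30 ± 0.37 on the log2 scale, with adjusted p = 0.565 in limma. Relative to the median of all tested genes, which was -0.46, it was 0.76. Its reads were whole in every library and numbered 112 to 301.

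Among the Cajal body RNAs were the 3 single rows with the highest mean level, Scarna10, Gm25395 and Scarna2, and also low ones such as Gm22009 and Gm55431. Summed over its 10 rows, U3 had higher group means than any of these, 2878 TPM with PBS and 2189 TPM with Botox. That ranking rests on reads having been divided among the rows, and how they were counted is not stated. The highest single U3 row had a mean of 345 TPM over all libraries, against 1330 TPM for Scarna10. The 7 rows of Cajal body RNAs (6 of biotype scaRNA and Scarna10, listed as snoRNA) summed to 3281 ± 86.1 TPM with PBS (SD, n = 3) against 2982 ± 835 TPM with Botox (SD, n = 4). Scarna10 (U85), which guides both kinds of modification of the U5 small nuclear RNA, was at 1616, 1476 and 1260 TPM in PBS 1 to 3 and at 1294, 1276, 1591 and 797 TPM in Botox 1 to 4. Only Botox 4 fell outside the PBS range. Its difference was -0.26 ± 0.37 on the log2 scale, with adjusted p = 0.610 in limma.

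Gm25395 was at 932, 1007 and 1048 TPM in PBS 1 to 3 and at 1194, 824, 996 and 614 TPM in Botox 1 to 4. Scarna6, 7.88 kb from it at the far ends and also within Atg16l1, an autophagy gene, was at 125, 109 and 107 TPM in PBS 1 to 3 and at 89.0, 43.7, 146 and 35.6 TPM in Botox 1 to 4. The 2 neighbours differed in their order: Botox 1 was the highest library for Gm25395 and Botox 3 for Scarna6. Their differences were -0.17 ± 0.37 and -0.75 ± 0.52 on the log2 scale, so 1 lay above and 1 below the all-gene median. Gm25395 exceeded Scarna6 8.76-fold by the PBS means of TPM per length.

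Scarna2, which guides modification of the U2 small nuclear RNA and had no host gene on its strand in the table, was at 491, 594 and 603 TPM after PBS. After Botox it was at 663, 413, 974 and 373 TPM, so 2 libraries were above and 2 below the PBS range, and the difference was 0.00 ± 0.43. Scarna13 (U93), hosted by Snhg10, varied little between libraries, at 136, 151 and 143 TPM in PBS 1 to 3 and at 139, 139, 150 and 113 TPM in Botox 1 to 4. Its coefficient of variation was 5.14% after PBS and 11.7% after Botox, and its difference was -0.09 ± 0.37. Gm22009, of biotype scaRNA and within Kpna4, was at 11.9, 10.1 and 22.8 TPM in PBS 1 to 3 and at 25.9, 12.3, 5.34 and 7.94 TPM in Botox 1 to 4, with both groups spread widely.

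The remaining members with Gm names were low. Gm24119, within Slc25a3, was at 21.5, 25.1 and 7.95 TPM in PBS 1 to 3 and at 16.6, 24.0, 9.47 and 12.3 TPM in Botox 1 to 4. Its groups overlapped. Gm22884, Gm23262, Gm23547, Gm23946, Gm55431 and Gm56109 had mean TPM below 5 and at most 24.0 reads in any library, with differences from -1.16 to 0.66. None of them was called in limma.

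No member was called by the fit across all genes. limma called 0 of 11260 genes higher and 0 lower at an adjusted p of 0.05 (0% in each direction). At an unadjusted p below 0.05, 0.133% of genes were higher and 7.37% lower. Among the 29 members 0 were higher and 2 lower at that level, Snora23 and Gm26448, or 6.90% of 29 rows. The 29 rows count U3 10 times, so this share and those below cannot be set closely against the background. No result about the members is read from them. The count was 0 without PBS 2 or without Botox 4, where 356 and 1130 of the 11260 genes were lower at that level, and 1 without PBS 3, where 315 were. It was 4 (13.8%) without Botox 1, Botox 2 or Botox 3, each left out alone, against 12.6%, 7.08% and 16.2% of all genes.

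The log2 difference was negative in 26 members and positive in 3, Scarna2, Snord17 and Gm55431, against 93.8% negative among all genes tested. The 26 include the 10 U3 rows. The median difference was -0.63 for the 29 rows, against -0.46 for all genes. It was -0.51 with all U3 rows replaced by 1 value, their median. With median-of-ratios size factors, which set the median of all genes at -0.04, the members split into 18 negative and 11 positive, and all genes into 56.7% negative. Scarna2 was then 0.63 ± 0.26 and Snord17 0.92 ± 0.32, both with adjusted p = 0.930 in limma. These 2 were the members at an unadjusted p below 0.05 on that scale, both higher, against 2.33% of all genes higher and 2.05% lower. On that scale Snord17, Gm25395 and Scarna13 were above PBS in every Botox library, which held for 3.98% of all genes, and no member was below, against 3.78%. The direction of Scarna10, Scarna13 and Gm25395 therefore depends on the scaling, while Snord17 stayed positive and Gm26448 (-0.64 ± 0.30), Snora73a, Snora73b and Snora23 stayed negative on both scales.

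**Figure D4:**
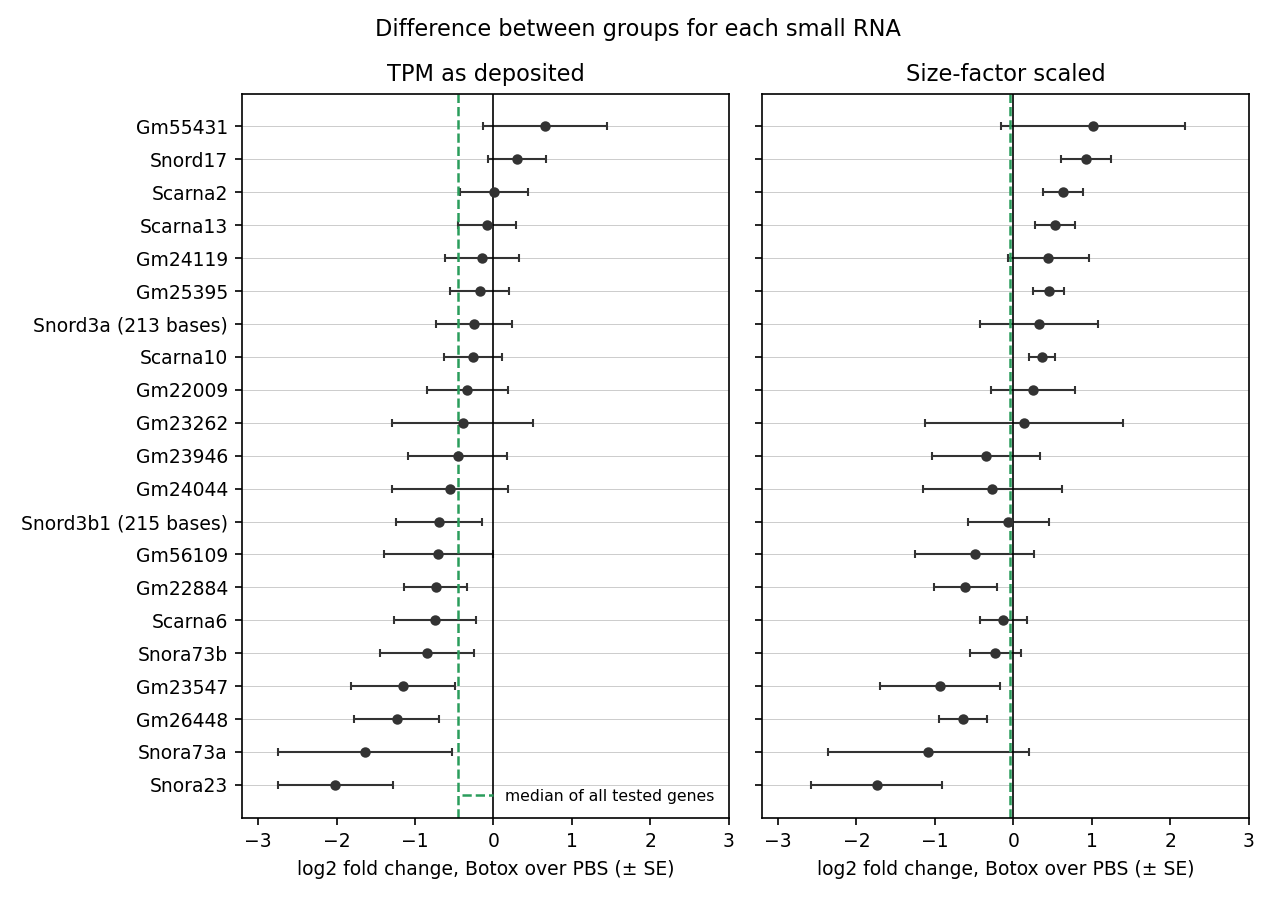
Log2 fold change, Botox over PBS, with its SE from limma for each small RNA (U3 by 1 row of each locus group), on TPM as deposited (left) and after size-factor scaling (right); the dashed line is the median of all 11260 tested genes. Snord17 and Gm55431 lie highest and Snora23 lowest in both panels, and the group as a whole moves right with the scaling.

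Without Botox 2, 9 members (31.0%) lay below every PBS library, the 8 Snord3b rows and Gm26448, against 27.1% of all genes. Without Botox 2 and Botox 4 together 11 members (37.9%) did, the 10 U3 rows and Gm26448, against 28.4% of all genes. The count was 2 without PBS 1, PBS 3 or Botox 3, against 24.8%, 28.4% and 43.3% of all genes, and 3 without Botox 1 or Botox 4, against 32.2% and 22.9%. The 8 Snord3b rows are not separate measurements, so the 2 higher counts stand for U3 and Gm26448 alone. Their shares count U3 8 or 10 times and cannot be set against the shares of all genes. In limma the Snord3b1 difference without Botox 2 and Botox 4 was -0.93 ± 0.33, with adjusted p = 0.451.

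Most members lie within another gene, and the ratio of member to host is taken within a library, so the scaling of the library does not enter it. For the 17 members other than U3 with a host on the same strand, the level per length after PBS was at or below that of the host in 7, 1 to 5 times the host in 3 and over 5 times in 7. The 7 at or below the host were Gm22884, Gm23262, Gm23547, Gm23946, Gm24044, Gm24119 and Gm55431, and for them reads of the host's introns could not be separated from reads of the small RNA. The same limit touches Gm26448, which was at or below Rpsa in 2 Botox libraries and at 1.01 times in another, and Snora23, which was at 0 to 1.56 times Ipo7 in the Botox libraries. The 7 well above were Scarna10, Gm25395, Snora73a, Snora73b, Scarna6, Scarna13 and Snord17. Scarna10 exceeded Ncapd2, a condensin subunit gene at 0.411 TPM, by 3529-fold, and Gm25395 exceeded Atg16l1 by 280-fold.

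**Figure D5:**
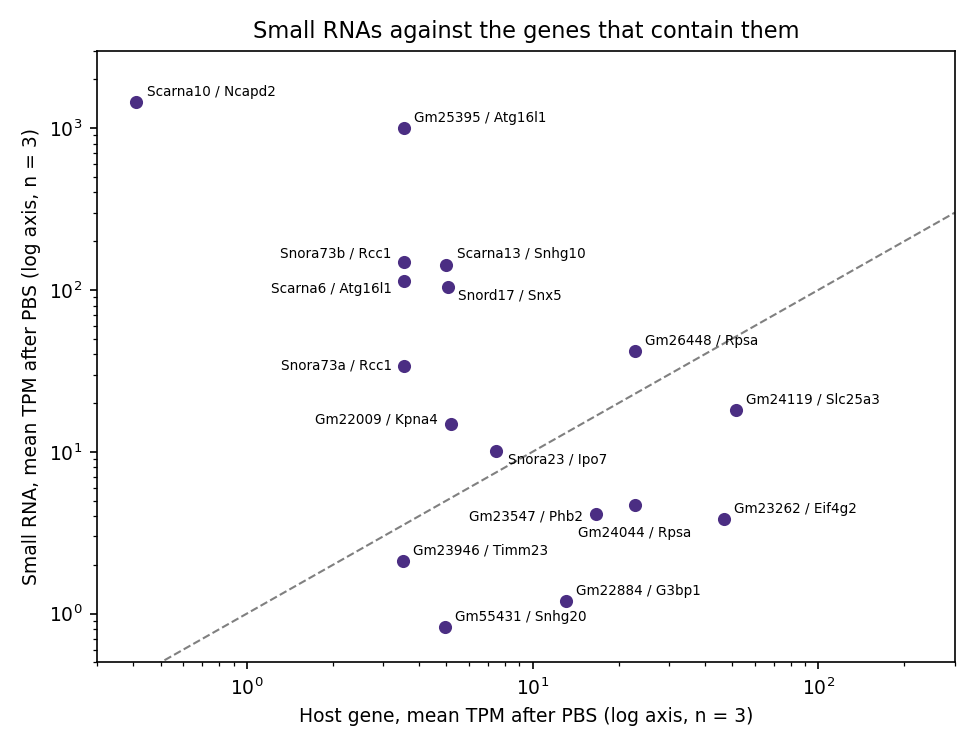
Mean TPM after PBS (n = 3) of each small RNA (vertical log axis) against that of the gene that contains it (horizontal log axis); the dashed line marks equal levels. Scarna10 and Gm25395 lie farthest above the line, and 7 members lie on or below it.

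Snord17 was 18.8, 23.2 and 20.5 times Snx5 in the PBS libraries and 34.7, 34.6, 44.9 and 70.9 times in the Botox libraries. Every Botox ratio was above every PBS ratio. Snx5 itself was at 5.05 ± 0.593 TPM with PBS (SD, n = 3) against 3.02 ± 0.878 TPM with Botox (SD, n = 4). Gm26448 was 1.73, 2.06 and 1.74 times Rpsa in the PBS libraries and 1.44, 0.656, 1.01 and 0.722 times in the Botox libraries, every one lower than after PBS. In the other 17 of the 19 pairs of member and host the ratios of the groups overlapped. The pairs share hosts, and the 2 that separated are the members that also separated by level, so the ratios are a description and were not tested.

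Genes of the machinery around these RNAs were given as fixed lists. Of the 4 C/D box proteins all 4 were tested, of the 4 H/ACA box proteins 3, of 11 assembly factors 4, of 6 Cajal body genes 1 and of 6 end-processing genes 2. In limma 0 of these 14 were called, against 0% of all genes, and all 14 had negative differences with a median of -0.42, against -0.46 for all genes. With size factors their median was 0.02. The smallest p-values belonged to Naf1, an H/ACA assembly factor (-0.43 ± 0.24), Nop58, a C/D core protein (-0.42 ± 0.27), and Tent4b, a poly(A) polymerase of RNA 3′ ends (-0.39 ± 0.26), with adjusted p = 0.424 in limma for each. Of 27 snoRNA host genes 23 were tested, 22 with negative differences and a median of -0.36, and 0 were called. Ncl, the nucleolin gene, had the smallest p among the hosts, at -0.98 ± 0.48 with adjusted p = 0.424 in limma.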

How the data were processed

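Per the labels' protocols, stranded paired-end libraries were made from Trizol-extracted RNA after ribosomal depletion. The authors deposited TPM per gene, made over the genomic span and with 0.001 added to every value, so 0.001 is given here as 0. The deposited table's gene length is stop minus start. The submitters' processing notes name mm39, Bowtie2 2.2.5, SAMtools and DESeq2, with no role. A deposited table of KEGG gene sets was not used here. The read counter and its treatment of multiply mapped reads are not stated in the sources used here.

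The 11260 genes that reached 1 TPM in 3 or more libraries were fitted with limma 3.58.1 (R 4.3.3) on log2(deposited TPM + 1), with an intensity trend and the group as the only term, and adjusted by Benjamini-Hochberg at 0.05. Reads per row were estimated from the step that 1 read adds to TPM times length. Of values under 20 reads, 89.3% to 90.7% were whole within 0.1. The step was fitted to these same values, so the 20% that a step not fitted to them would give is not their chance rate. TPM is not a count, so a log-scale test was used and no count test was made. Estimated depth was 8.56 to 13.6 M reads. The scripts were tested on simulated data. Each library is from a separate mouse per the labels, and nothing else says how the animals were grouped or handled. A host is a gene on the same strand that contains the member, and clusters join members within 20 kb. Sequences were compared with Biopython 1.88. Motif windows downstream of the genes were not used here, and other transcripts took their place.

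The members and lists were chosen with earlier results of these data known. Named are the 10 highest members, the 6 of smallest p in each direction, every Scarna member, U3, U8, U13 and U17, members of the 3 largest clusters and 2 on each side of the threshold. Alternatives covered the pseudocount, the filter, the scaling, the intensity trend, the replicate block, the threshold of the rule and each library left out.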

Additional observations from a re-analysis of the deposited data

Results flagged for a closer look

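In 28 sets of 4 Botox values that were checked, the highest or lowest library stood apart from the other 3 by more of the range than Dixon's critical value for 4 samples in 2, which chance gives in about 1 in 20 sets. Gm22884 was at 1.01 TPM in Botox 1 and at 0 in the other 3 Botox libraries, and this value is 1 read. Gm55431, within Snhg20, was at 12.1 TPM in Botox 4, which stands for 24.0 reads, against 0, 0 and 2.00 TPM in the others, and its positive difference of 0.66 became -0.14 without Botox 4.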

How the results depend on the processing

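Under 17 settings of the fit, 0 of the 21 named members passed an adjusted p of 0.05. The lowest adjusted p was 0.0760 in limma, without Botox 1. Of 350 values of these members under alternatives, 310 had the same sign and call and 40 the other sign. Genes called higher numbered 0 in the main fit and 1 with size factors or quantile normalization, and genes called lower 22 with no filter on low values. With single libraries left out they ranged from 0 to 3 and from 0 to 73, both highest without Botox 1. At an unadjusted p below 0.05 in limma, 1 member was lower with a pseudocount of 0.1 TPM (4.41% of all genes lower). With 7SL RNA left out 1 was higher (0.64% of all genes higher and 2.13% lower). With no filter 0 were at that level (9.68% of all genes lower). With quantile normalization 3 were higher and 1 lower (3.51% of all genes higher and 2.52% lower). Without Botox 2 and Botox 4, 5 rows were lower (9.40% of all genes lower). All 5 were U3 rows, which are not separate measurements. With 1 library left out the count was 0 to 4 (2.53% to 16.2% of all genes lower). Members below PBS in every Botox library were 0 with size factors (3.78% of all genes). Without Botox 2 and Botox 4 they were 11 (28.4%), the U3 rows and Gm26448. With 1 library left out they were 1 to 9 (22.9% to 43.3%), the 9 being the Snord3b rows and Gm26448. Members above were 3 with size factors (3.98%), 4 with quantile normalization (4.95%), and 2 with 7SL RNA left out (1.01%) or without Botox 2 and Botox 4 (4.22%). The difference in the members' share of TPM was 0.105 percentage points with 7SL RNA left out.

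Values that changed sign are given in the order size factors, quantile normalization and 7SL RNA left out. They were 0.54, 0.61 and 0.29 for Scarna13, 0.37, 0.41 and 0.12 for Scarna10, 0.45, 0.45 and 0.21 for Gm25395, and 0.45, 0.42 and 0.23 for Gm24119. They were 0.25, 0.18 and 0.0132 for Gm22009 and 0.33, 0.27 and 0.0654 for Snord3a. Gm23262 was 0.0489 with a pseudocount of 10 TPM, 0.14 with size factors and 0.37 with quantile normalization. Without Botox 2 and Botox 4 together, Scarna6 was 0.00688, Scarna13 0.0150, Snora73a 0.44, Gm25395 0.13, Gm23946 0.45 and Gm56109 0.50. With 1 library left out Scarna2 ranged from -0.26 to 0.20, Gm24119 from -0.62 to 0.15, Gm55431 from -0.14 to 1.17, Gm23262 from -1.12 to 0.18, Gm24044 from -1.27 to 0.0806 and Snord3a from -0.63 to 0.17. The cause was not tested.

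Same-numbered libraries deviated together with correlations of 0.09, -0.03 and -0.18. No pairing by number showed in these values, but 1 correlation per number, without a comparison value, cannot exclude it. With the number as a replicate block, which leaves Botox 4 without a partner, 0 members were at an unadjusted p below 0.05 in limma. Of all genes 7.16% were lower and 0.568% higher at that level. In that fit Gm55431 was -0.14 and Gm24044 0.0806. The 8 members with zeros rest on at most 24.0 reads.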
